A study of Mus musculus with 36 samples.

Results

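A set of 10 genes that mark the medial border of the dorsal telencephalon were followed through polysome fractionation RNA sequencing of mouse cortex: 4 choroid plexus genes (Ttr, Folr1, Enpp2 and Otx2) and 6 genes of the cortical hem and roof plate (Lmx1a, Wnt3a, Wnt2b, Wnt8b, Rspo2 and Rspo3). They were chosen by name, with earlier results of these data known, so their counts beside the share of all genes are descriptive. All 10 were found among the 55487 genes of the count table. Cortices were microdissected from female embryos at stage E14.5, and each sample pooled the cortices of 2 embryos of like genotype. In the LoF cross, conditional heterozygotes (LoF cHet) were Emx1-Cre positive with 1 Ddx3x allele flanked by lox sites (lox/+). LoF control embryos had the same lox/+ genotype with no Cre. In the T532M cross, heterozygotes (T532M cHet) were Emx1-Cre positive with a Ddx3x-T532M lox/+ genotype, T532M being a missense change. T532M control embryos had Emx1-Cre alone. Ddx3x, on the X chromosome, codes for a helicase that acts in translation initiation, and Emx1-Cre acts in progenitors of the dorsal telencephalon, so a pool also holds cells that keep their alleles. Each of the 12 pools gave 3 libraries, from the cleared lysate (input), from RNA sedimenting with single ribosomes (monosome) and from RNA sedimenting with several ribosomes (polysome), which makes 36 libraries in 12 groups of 3.

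The choroid plexus is a secretory epithelium that makes cerebrospinal fluid, and in the telencephalon it arises from the dorsal midline next to the cortical hem. The hem is a signalling centre at the edge of the cortex: it secretes Wnt and BMP proteins, is required for the hippocampus to form and gives rise to Cajal-Retzius cells. Wnt ligands bind Frizzled and LRP receptors and stabilise beta-catenin, and R-spondins strengthen that signal by removing the ubiquitin ligases that clear Frizzled from the cell surface. Because both tissues are thin strips at the border of the dissected cortex, they form a small part of a cortex sample.

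Input libraries held 38059093 to 46271375 read pairs. Monosome libraries held 36999365 to 49049947 and polysome libraries 44214830 to 57935512. Levels are given in CPM, the deposited counts of read pairs scaled by TMM library sizes. A count of 0 allows up to 3 read pairs, which is 0.0509 to 0.0654 CPM in input, and intervals and floors cover counting error only. Emx1, which marks the dorsal cortex, was present in all 12 input libraries at 62.8 to 88.1 CPM. Ddx3x itself averaged 88.7 ± 26.9 CPM in LoF cHet inputs and 112 ± 35.5 CPM in LoF control inputs, and 203 ± 37 CPM in T532M cHet inputs and 102 ± 50.0 CPM in T532M control inputs (SD, n = 3 each). In bulk samples, fewer cells of a type and less RNA per cell cannot be told apart, and this holds for every level below.

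The same few pools stood apart for most of the 10 genes. In input, T532M cHet pool 1 was the highest of the 12 pools for 9 of the 10 genes, and T532M cHet pool 1 and LoF control pool 1 were each among the top 4 for all 10. At the other end, T532M cHet pool 3 was the lowest for 5 genes, T532M control pool 3 for 3 and LoF cHet pool 3 for 2. T532M control pools 1 and 2 were the lowest for 1 each. Pools tied at 0 were each counted. T532M cHet pool 1 was also the highest for 7 of 10 genes in the monosome and 8 of 10 in the polysome. The T532M cHet group thus held both the pool that was most often highest and the pool that was most often lowest in input. The labels do not say whether pools came from separate litters. Whether the spread between these pools was technical or biological was not tested. Unless a lysate block or a fit of 1 fraction is named, the tests counted the 3 libraries of a pool as independent. Pool ranks mostly held across fractions, with a Spearman rho of monosome with input of 0.988 for Ttr and 0.755 for Rspo3. The p-values thus do not measure the spread between pools alone.

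Ttr, which encodes transthyretin, the thyroid hormone carrier that choroid plexus epithelium secretes, had the widest range. In input it was at 38.3, 0.519 and 0.043 CPM in LoF cHet pools 1 to 3, against 156, 1.45 and 179 CPM in LoF control pools 1 to 3. In the T532M cross it was at 181, 2.28 and 0 CPM in cHet pools, against 0.195, 0 and 0.0602 CPM in control pools. T532M cHet pool 1 and LoF control pools 1 and 3 together held 92.3% of the summed input level, and 4 of 12 pools were at or under 3 read pairs. The groups overlapped in both crosses in input. Polysome libraries showed the same split: 5.27, 0.118 and 0.0272 CPM in LoF cHet, against 28.6, 0.473 and 30.8 CPM in LoF control, and 44.7, 0.501 and 0.0312 CPM in T532M cHet, against 0.0299, 0 and 0.0302 CPM in T532M control.

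Folr1, a folate receptor of the plexus epithelium that carries folate into cerebrospinal fluid, followed Ttr at lower counts. Its input levels were 1.09, 0.379 and 0.0645 CPM in LoF cHet, against 1.67, 0.598 and 1.99 CPM in LoF control. In T532M cHet it was at 2.5, 0.291 and 0.0192 CPM, against 0.371, 0.109 and 0 CPM in T532M control. Again the 4 highest pools were T532M cHet 1, LoF control 3, LoF control 1 and LoF cHet 1, and these were the same 4 as for Ttr.

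Otx2, a homeodomain transcription factor needed to form and keep the choroid plexus, was present in every library. In input it was at 1.99, 0.938 and 0.967 CPM in LoF cHet, against 3.5, 2.1 and 4.53 CPM in LoF control, and at 7.07, 1.56 and 0.538 CPM in T532M cHet, against 1.07, 1.26 and 1.46 CPM in T532M control. All 3 LoF cHet pools lay below all 3 LoF control pools, while T532M cHet pools lay on both sides of their controls.

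Enpp2, which encodes autotaxin, a secreted enzyme that makes lysophosphatidic acid, varied least among the plexus genes, with a highest input pool only 3.71 times the lowest. It was at 5.39, 7.19 and 4.79 CPM in LoF cHet inputs, against 8.25, 4.76 and 8.7 CPM in LoF control inputs. T532M cHet inputs had 7.19, 3.01 and 2.86 CPM, against 2.34, 4.95 and 3.21 CPM in T532M control inputs. The groups overlapped in both crosses, and Enpp2 stayed at 2.34 CPM or more in input pools where Ttr was at or near 0.

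Most hem genes were high in the same pools as Ttr, over a narrower range. Wnt3a, the hem ligand that is required for the hippocampus, was at 2.17, 1.02 and 0 CPM in LoF cHet inputs, against 2.54, 1.52 and 1.2 CPM in LoF control inputs. In T532M cHet inputs it was at 4.23, 1.5 and 0.0384 CPM, against 0.528, 0.0218 and 0 CPM in T532M control inputs. Of the 12 pools, 7 had 1.02 CPM of Wnt3a or more: all 3 LoF controls, LoF cHet 1 and 2, and T532M cHet 1 and 2. The 4 pools LoF cHet 3, T532M cHet 3 and T532M control 2 and 3, were at or under 3 read pairs.

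Wnt8b, a Wnt ligand of the hem and medial pallium, was at 4.17, 2.56 and 0.215 CPM in LoF cHet inputs, against 6.38, 2.53 and 4.12 CPM in LoF control inputs. It was at 9.35, 3.41 and 0.75 CPM in T532M cHet inputs, against 1.56, 1 and 0.0602 CPM in T532M control inputs. Wnt2b, a Wnt ligand also made in the hem, had 2.46, 1.32 and 0.387 CPM in LoF cHet inputs, against 2.26, 1.95 and 1.73 CPM in LoF control inputs, and 4.75, 1.45 and 0.0769 CPM in T532M cHet inputs, against 0.391, 0.414 and 0.1 CPM in T532M control inputs. The same 7 pools were the highest for Wnt3a, Wnt2b, Wnt8b, Lmx1a, Rspo2 and Ttr, and the 4 highest for Wnt8b were the 4 highest for Ttr. Among the 7, LoF control 2, LoF cHet 2 and T532M cHet 2 had 0.519 to 2.28 CPM of Ttr, against 38.3 to 181 CPM in the other 4.

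**Figure D1:**
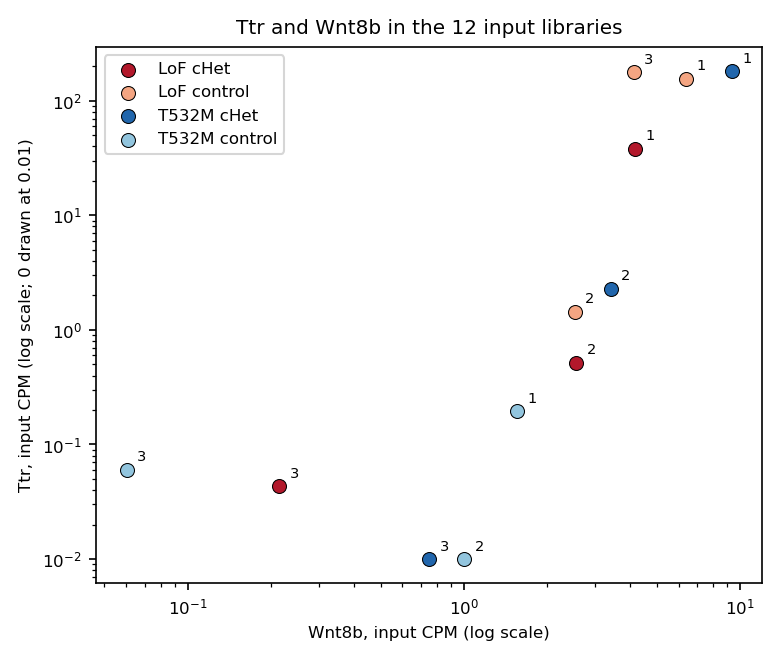
Ttr level (y axis, CPM, log scale, with 0 drawn at 0.01) against Wnt8b level (x axis, CPM, log scale) in the 12 input libraries, 1 point a pool, coloured by group and numbered by pool. The 4 pools at 38.3 CPM of Ttr or more all had at least 4.12 CPM of Wnt8b, while the pools numbered 2 of LoF cHet, LoF control and T532M cHet had 2.53 to 3.41 CPM of Wnt8b and at most 2.28 CPM of Ttr.

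Lmx1a, a LIM homeodomain factor that marks the roof plate and hem and keeps hem cells from a cortical fate, was at 1.4, 1.16 and 0.623 CPM in LoF cHet inputs, against 3.12, 1.79 and 2.46 CPM in LoF control inputs. In T532M cHet inputs it was at 3.8, 1.72 and 0.442 CPM, against 0.645, 0.959 and 0.501 CPM in T532M control inputs. Lmx1a thus had LoF groups that did not overlap, the cHet pools being lower, and T532M groups that did.

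The 2 R-spondin genes differed from each other. Rspo2 was at 2.22, 2.79 and 0.322 CPM in LoF cHet inputs, against 5.71, 3.82 and 3.29 CPM in LoF control inputs, and at 8.94, 3.39 and 0.115 CPM in T532M cHet inputs, against 0.918, 0.349 and 0.261 CPM in T532M control inputs. Rspo3 was at 8.27, 14.1 and 8.06 CPM in LoF cHet inputs, against 22.7, 15.2 and 15.5 CPM in LoF control inputs. T532M cHet inputs had 31.1, 14.7 and 9.32 CPM of Rspo3, against 11.5, 12.7 and 15.9 CPM in T532M control inputs. Rspo2 followed the Wnt ligands and fell to a few read pairs in the poorest pools, with a highest pool 77.5 times the lowest. Rspo3 was present throughout, with a highest pool 3.86 times the lowest.

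**Figure D2:**
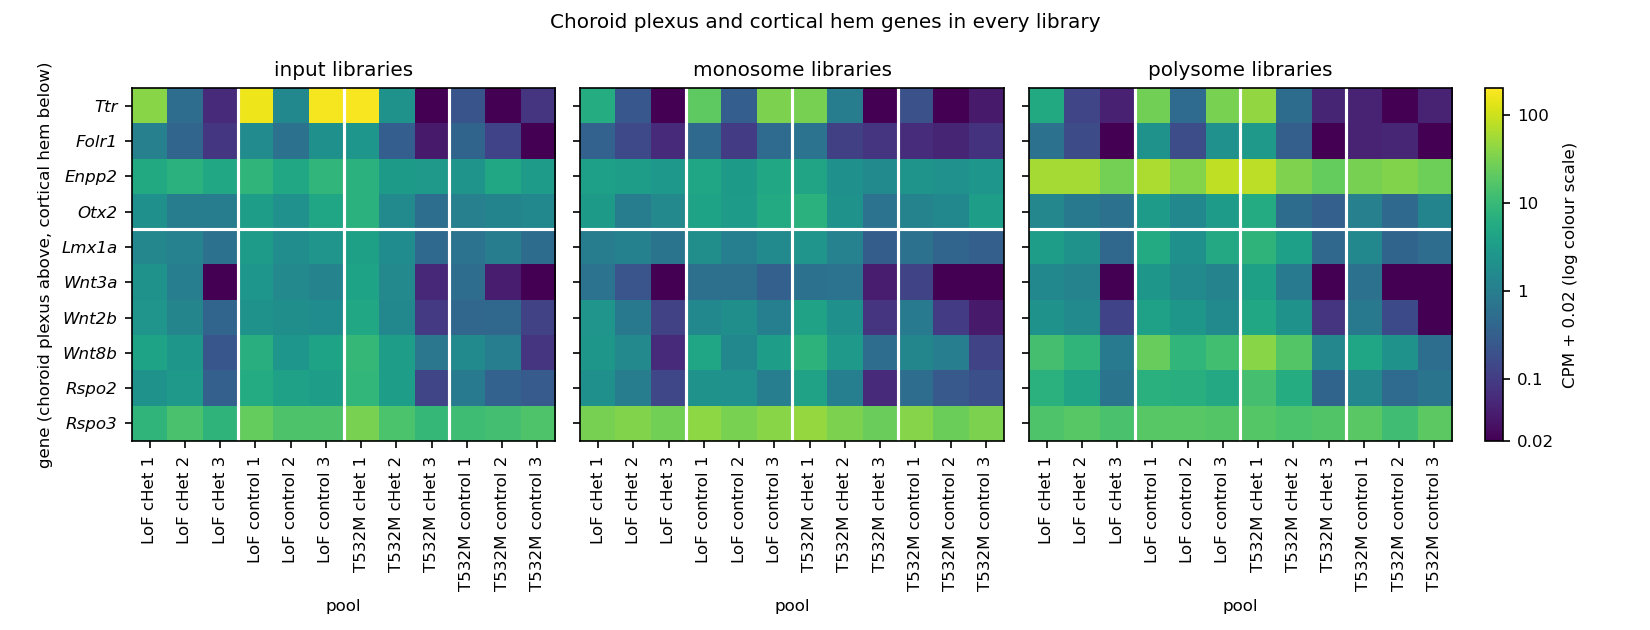
Level of each of the 10 genes (rows) in each pool (columns) for input, monosome and polysome libraries, as CPM plus 0.02 on a log colour scale; white lines part the groups and the 2 classes. Ttr is bright in 4 input pools (38.3 to 181 CPM) and dark in the others, the hem Wnt genes are dark in pools such as LoF cHet 3 and T532M control 3, and Enpp2 and Rspo3 are present in all 12.

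Promoter sequence is shown for the 3 Wnt genes, the ligands of the set, because their start regions differ in base composition. The windows are the 250 bases before each RefSeq start on GRCm38.p6, in the direction of the gene; 5 of the 10 genes had a window (Otx2, Lmx1a, Wnt3a, Wnt2b and Wnt8b). Capitals mark GC boxes (GGGCGG or its reverse complement CCGCCC) and the homeodomain core TAATTA. The Wnt3a window (minus strand) is chr11:59290752-59291001, the Wnt2b window (minus strand) chr3:104961710-104961959 and the Wnt8b window (plus strand) chr19:44493222-44493471.
Wnt3a: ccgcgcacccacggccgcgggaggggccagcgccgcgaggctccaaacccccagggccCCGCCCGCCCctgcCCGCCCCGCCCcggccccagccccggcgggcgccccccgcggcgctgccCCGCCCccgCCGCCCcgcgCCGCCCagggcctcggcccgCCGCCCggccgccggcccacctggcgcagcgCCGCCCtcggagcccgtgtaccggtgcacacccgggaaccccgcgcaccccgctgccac
Wnt2b: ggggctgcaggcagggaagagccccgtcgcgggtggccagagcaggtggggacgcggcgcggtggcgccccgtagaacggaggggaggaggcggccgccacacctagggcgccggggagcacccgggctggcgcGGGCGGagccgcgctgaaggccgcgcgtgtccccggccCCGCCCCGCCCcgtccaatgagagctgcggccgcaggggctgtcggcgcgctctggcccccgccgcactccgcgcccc
Wnt8b: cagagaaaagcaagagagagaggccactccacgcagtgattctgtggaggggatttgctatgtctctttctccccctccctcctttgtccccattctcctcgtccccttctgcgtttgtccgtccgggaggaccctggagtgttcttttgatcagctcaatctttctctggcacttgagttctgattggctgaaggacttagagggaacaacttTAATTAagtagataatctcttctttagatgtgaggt

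The Wnt3a window was 87.6% G and C with 41 CpG dinucleotides and 9 GC boxes, counted with overlaps, and the Wnt2b window 80.8% with 36 CpG and 3 GC boxes. The Wnt8b window was 48.4% G and C with 5 CpG, no GC box and 1 TAATTA. Over all 32851 windows of the same length, the median was 52.4% G and C and 6 CpG, 32.7% held a GC box and 4.84% held TAATTA on either strand. The TCF/LEF letters CTTTGA or TCAAAG, found in 13.8% of all windows, and the bicoid-type letters TAATCC or GGATTA, found in 6.25%, were in none of these 3 windows; a match or its absence describes these letters only.

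In the LoF cross, all 10 genes were lower in cHet than in control in each fraction by the sign of the fold change. None passed the test. Most of the 10 rose and fell together over pools, so 10 like signs are not 10 separate observations in either cross. The median log2 fold change of the 10 was -1.04 in input, -0.78 in the monosome and -1.05 in the polysome, against medians over all genes of -0.01, 0.01 and 0.01. With edgeR's quasi-likelihood test and Benjamini-Hochberg adjustment over 18556 genes, 0 of 10 had an adjusted p under 0.05 in input, where 0% of all genes did, 0 of 10 in the monosome (0.0108% of all genes) and 0 of 10 in the polysome (0%). At an unadjusted p under 0.05 there were 3, 1 and 3 of the 10, beside 10.8%, 4.2% and 3.23% of all genes. By DESeq2, which called more of all genes in input than edgeR did (counts given below), 1 of the 10 was called there.

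That gene was Rspo3 in input. Its log2 fold change was -0.81 (SE 0.194), with an adjusted p of 0.204 by edgeR and 0.0257 by DESeq2, and all 3 cHet pools (8.06 to 14.1 CPM) lay below all 3 control pools (15.2 to 22.7 CPM). The authors' deposited table gives Rspo3 a log2 fold change of -0.785 in input with an adjusted p of 0.0319. Over the pools left out in turn the edgeR adjusted p ran from 0.048, without LoF cHet pool 2, to 1, without LoF control pool 1. In the monosome, Rspo3 had 30.6, 35.5 and 28.5 CPM in LoF cHet, against 41.4, 30.9 and 39.6 CPM in LoF control (log2 fold change -0.24, SE 0.188). In the polysome it had 16, 18.2 and 14.1 CPM in LoF cHet, against 18.3, 18 and 17.3 CPM in LoF control (log2 fold change -0.13, SE 0.194). The groups overlapped in both ribosomal fractions.

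Otx2 was the 1 gene whose LoF groups did not overlap in any of the 3 fractions. Its monosome levels were 2.98, 0.983 and 1.51 CPM in LoF cHet, against 4.17, 3.08 and 5.56 CPM in LoF control, and its polysome levels 1.4, 0.795 and 0.625 CPM in LoF cHet, against 3.24, 1.47 and 3.29 CPM in LoF control. The log2 fold changes were -1.37 (SE 0.424) in input, -1.23 (SE 0.415) in the monosome and -1.49 (SE 0.462) in the polysome, with adjusted p of 0.266, 0.9997 and 1 by edgeR. In all, LoF cHet pools lay wholly below controls for 4 of 10 genes in input (Otx2, Lmx1a, Rspo2 and Rspo3; 6.35% of all genes), 1 in the monosome (Otx2; 4.97%) and 1 in the polysome (Otx2; 2.81%), and wholly above for 0. The gaps were small for Otx2, whose highest LoF cHet input (1.99 CPM) was close to the lowest LoF control input (2.1 CPM).

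Ttr had the largest LoF fold changes, -3.10 (SE 1.71) in input, -3.12 (SE 1.85) in the monosome and -3.47 (SE 1.94) in the polysome, with adjusted p of 0.577, 0.9997 and 1 by edgeR. Its control group was itself split, since LoF control 2 had 1.45 CPM in input beside 156 and 179 CPM in the other two. The input fold ran from -8.57, without LoF cHet pool 1, to -2.53, without LoF cHet pool 3, and no omission of a pool brought the adjusted p of Ttr under 0.05. The LoF fold changes of the 7 genes other than Ttr, Otx2 and Rspo3 lay between -2.55 (Folr1, polysome) and -0.32 (Enpp2, input).

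In the T532M cross the signs were the other way round, and again none of the 10 genes passed the test. All 10 were higher by sign in T532M cHet in input, all 10 in the monosome and 9 in the polysome, with median log2 fold changes of 2.40, 2.33 and 2.89 against medians over all genes of -0.0014, -0.05 and -0.02. By edgeR 0 of 10 had an adjusted p under 0.05 in input (0.00548% of 18243 genes), 0 in the monosome (1.03%, of which 0.976% higher and 0.0548% lower) and 0 in the polysome (0%). At an unadjusted p under 0.05 there were 3, 1 and 5 of the 10, beside 10.7%, 11.8% and 7.92% of all genes. The authors' deposited table for this cross lists 6 of the 10 genes (Enpp2, Lmx1a, Otx2, Rspo2, Rspo3 and Wnt8b), with input adjusted p between 0.273 (Rspo2) and 0.846 (Enpp2).

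These fold changes rested on T532M cHet pools 1 and 2, since pool 3 was as low as the controls. Ttr had a log2 fold change of 9.35 (SE 2.83) in input with an adjusted p of 0.287 by edgeR, and 3.63 without T532M cHet pool 1. Without that pool the input fold changes of Folr1, Enpp2, Otx2 and Rspo3 turned negative, at -0.11, -0.26, -0.30 and -0.17. In polysomes Ttr had 1407 read pairs over the 3 T532M cHet libraries and 2 over the 3 controls, a depth-corrected ratio of 758 (95% counting interval 209 to 6263), and Folr1 had 97 and 2, a ratio of 52.2 (14.1 to 437). These intervals leave out the difference between pools, and 1393 of the 1407 read pairs came from T532M cHet pool 1.

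Among the hem genes in input, Wnt3a had a log2 fold change of 3.29 (SE 1.5), Rspo2 of 2.97 (SE 1.23), Wnt2b of 2.75 (SE 1.41), Wnt8b of 2.32 (SE 1.17) and Lmx1a of 1.47 (SE 0.846), with adjusted p between 0.422 (Rspo2) and 0.531 (Lmx1a) by edgeR. Rspo3 changed least, by 0.43 (SE 0.321) in input, 0.12 (SE 0.315) in the monosome and -0.04 (SE 0.326) in the polysome. T532M cHet pools lay wholly above controls for 0 of 10 genes in input (6.65% of all genes), 1 in the monosome (Folr1; 8.54%) and 1 in the polysome (Ttr; 3.29%). For these 2 the lowest cHet library was next to the highest control, 0.0615 and 0.0572 CPM for Folr1 and 0.0312 and 0.0302 CPM for Ttr, each within 3 read pairs.

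**Figure D3:**
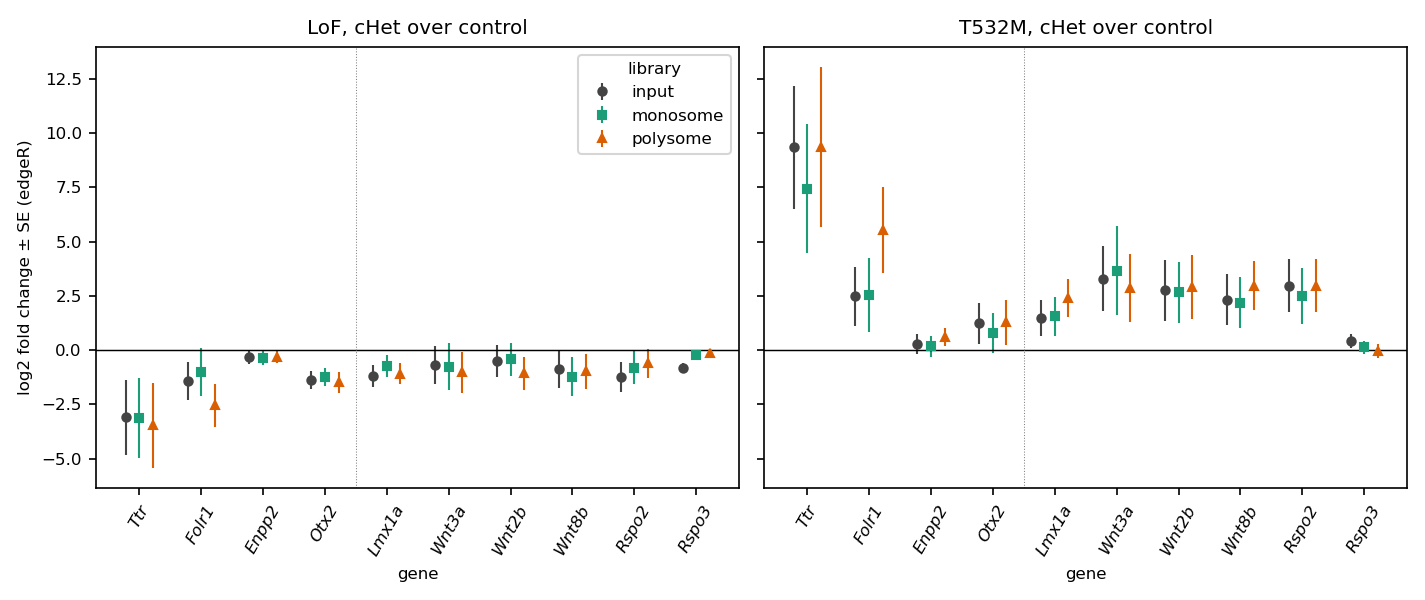
log2 fold change of cHet over control (y axis, edgeR, bars are the SE) for each gene (x axis) in input, monosome and polysome libraries, with the LoF cross on the left and the T532M cross on the right. The LoF values lie between -3.47 and -0.13, the T532M values between -0.04 and 9.37, and the longest bars belong to Ttr and Folr1.

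The LoF effect minus the T532M effect was negative for all 10 genes in each fraction, with medians of -3.26 in input, -3.20 in the monosome and -3.72 in the polysome, against -0.03, 0.04 and 0.05 over all genes. By edgeR on all 36 libraries 0 of 10 had an adjusted p under 0.05 in input (0.0105% of 19121 genes), 0 in the monosome (0%) and 0 in the polysome (0%). At an unadjusted p under 0.05 there were 8, 4 and 7 of the 10, beside 15.9%, 6.69% and 5.59% of all genes. The smallest adjusted p in input were 0.0813 for Ttr (difference -12.49) and 0.0963 for Rspo3 (difference -1.26). DESeq2 called these 2 genes in input, with adjusted p of 0.0218 and 0.0494. It also called more of all genes there than edgeR did (counts given below). With T532M cHet pool 3 left out, edgeR called 5 of the 10 in input and 3.44% of all genes. Over left-out pools the number of all genes called in input ran from 1 to 1697, the highest without T532M control pool 2, where 0 of the 10 were called. The crosses also differed in their control groups, of which the LoF one had no Cre and the T532M one had Cre.

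Other markers of the same tissues were read from lists of 20 plexus and 17 hem genes. Of the plexus list 17 genes were tested, of which 15 were negative by sign in LoF cHet inputs (median log2 fold change -0.77) and 15 positive in T532M cHet inputs (median 0.97). Of the hem list 15 were tested, with 13 negative in LoF (median -0.19) and 11 positive in T532M (median 0.65). These counts of signs were not tested, and no share of signs over all genes is given beside them. A marker near 0 in most pools can take its sign from a few high pools. The summed input level of both lists, given below, was highest in T532M cHet pool 1. Like signs within a list therefore need not be separate observations of a genotype effect. No gene of either list passed the edgeR test in a genotype comparison. The channel subunit Kcne2 of plexus epithelium reached 7.89 CPM in input with a median of 0. The hem R-spondin Rspo1 ran from 0.14 to 16.6 CPM with a median of 2.99. Others varied far less, such as Igfbp2 (143 to 178 CPM) and Cab39l (31.7 to 45.8 CPM) of the plexus list and Bambi (3.22 to 6.89 CPM) of the hem list. The summed plexus list was at 221 to 236 CPM in LoF cHet inputs, against 214 to 254 CPM in LoF control inputs. T532M cHet inputs had 207 to 256 CPM, against 203 to 219 CPM in T532M control inputs. Igfbp2 and Cab39l, with input medians of 152 and 37.4 CPM, made up most of this sum. The summed hem list was at 40.7 to 64.9 CPM in LoF cHet inputs, against 57.8 to 77.5 CPM in LoF control inputs. It was at 31.1 to 91.6 CPM in T532M cHet inputs, against 30.9 to 46.3 CPM in T532M control inputs. Of the 20 plexus genes 19 were in the count table. Wnt1 was at 0 in all 12 input libraries, and the roof plate ligand Gdf7 reached at most 0.0195 CPM.

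Markers of neighbouring cell types are given for the same pools, and their part in the results was not tested. The summed input level of 14 genes of meninges and vascular fibroblasts was 181 to 309 CPM in LoF cHet, against 195 to 283 CPM in LoF control, and 67.5 to 136 CPM in T532M cHet, against 29.9 to 137 CPM in T532M control. For 15 genes of septum, ganglionic eminence and diencephalon it was 233 to 339 CPM in LoF cHet, against 292 to 397 CPM in LoF control, and 192 to 420 CPM in T532M cHet, against 240 to 309 CPM in T532M control. The highest pool for these 15 genes was T532M cHet 1 (420 CPM), which was also the highest for 9 of the 10 border genes. The lowest was T532M cHet 3 (192 CPM), which was the lowest for 5. Other pools did not keep the order of Ttr. LoF control 2 had 397 CPM of the list with 1.45 CPM of Ttr, and LoF control 3 had 292 CPM with 179 CPM of Ttr. Dlx1 and Dlx2, with input medians of 110 and 63.6 CPM, were large parts of this sum. For 11 Cajal-Retzius genes, including Reln and Trp73, the sum was 179 to 197 CPM in LoF cHet, against 188 to 215 CPM in LoF control, and 187 to 226 CPM in T532M cHet, against 171 to 188 CPM in T532M control. For 11 genes of the medial pallium and hippocampal primordium, the tissue next to the hem, it was 1735 to 1738 CPM in LoF cHet. LoF control had 1682 to 1908 CPM. T532M cHet had 1791 to 1887 CPM, against 1657 to 1728 CPM in T532M control, so the T532M groups did not overlap. Nfix and Lhx2, with input medians of 879 and 452 CPM, made up most of this sum, while Prox1 had a median of 4.19 CPM. For 9 dorsal pallium genes the sum was 1856 to 2413 CPM in LoF cHet, against 2097 to 2357 CPM in LoF control. It was 1941 to 2298 CPM in T532M cHet, against 2340 to 2511 CPM in T532M control. These T532M groups did not overlap either, the cHet pools being lower. Neither difference was tested. Among all single genes in T532M input, 6.65% had cHet pools wholly above controls and 6.61% wholly below.

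The receivers of the Wnt and R-spondin signals were measured as a list of their own. The 17 receptor and pathway genes, among them the R-spondin receptors Lgr4 to Lgr6, the Frizzled genes and the Wnt secretion factor Wls, summed to 454 to 506 CPM in LoF cHet inputs, against 457 to 507 CPM in LoF control inputs, and to 543 to 584 CPM in T532M cHet inputs, against 437 to 514 CPM in T532M control inputs. Frizzled and LRP genes made up most of each sum, while the R-spondin receptors were low, with medians over the 12 inputs of 2.87 CPM for Lgr4, 0.229 CPM for Lgr6 and 0.0786 CPM for Lgr5. The sums overlapped in LoF, and all 3 T532M cHet pools lay above their controls, as did those of 6.65% of all single genes in T532M input. That difference in sums was not tested. None of the 17 passed the test in a genotype comparison, and their median input log2 fold change was -0.02 in LoF and 0.32 in T532M. Of the Wnt targets and antagonists, 14 of 15 were tested in LoF (0 called; median -0.06 in input) and 13 in T532M (0 called in input; median 0.34). In T532M monosomes, where 0.976% of all genes were called higher, 2 of them were called higher by edgeR: Nkd1, a feedback inhibitor of Wnt signalling, by 0.47 (SE 0.094, adjusted p 0.0211), and Sfrp2, a secreted Wnt binder, by 0.44 (SE 0.101, adjusted p 0.0402). In the same comparison, where 0.0548% of all genes were called lower, 1 Cajal-Retzius gene, Ndnf, fell by 0.81 on the log2 scale (SE 0.173, adjusted p 0.0277).

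The 10 genes differed in how their RNA was spread over the gradient. Polysome against monosome over all 12 pools, 5 were higher by edgeR (Enpp2, Lmx1a, Wnt3a, Wnt8b and Rspo2), where 39.2% of 19121 genes were, and 1 was lower (Rspo3), where 51.4% were. The median log2 fold change of the 10 was 1.12, against -0.40 over all genes. Polysome against input, where 88.5% of genes were called in either direction, 2 were higher (Enpp2 and Wnt8b; 39.6% of genes) and 0 lower (48.8%). Monosome against input, 1 was higher (Rspo3; 41.7%) and 3 were lower (Folr1, Enpp2 and Wnt3a; 37.8%). With library totals alone as the scale, the median of all genes moved to -1.29 for polysome against monosome and to -1.18 for polysome against input, against -0.30 on the TMM scale, so the fraction folds are relative to the TMM scale. Over all genes, 79.4% to 90.6% passed a fraction test in 1 direction or the other.

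Enpp2 was the most polysome-shifted of the 10. Its polysome level was 58.5, 58.2 and 29.4 CPM in LoF cHet, 65.2, 36.5 and 83.1 CPM in LoF control, 80.1, 33.2 and 22.7 CPM in T532M cHet and 29.9, 35.2 and 26.3 CPM in T532M control, and its monosome level 1.54 to 4.82 CPM over all pools. The polysome and monosome libraries did not overlap in any group. Within pools the log2 ratio of polysome over monosome was 3.86 ± 0.28 (SD, n = 12 pools), above 0 in 12 of 12, and of polysome over input 3.14 ± 0.31 (12 of 12). The fitted log2 fold change was 3.93 (SE 0.222, adjusted p 4.24e-17) for polysome against monosome and 3.17 (SE 0.213, adjusted p 3.68e-15) for polysome against input. Monosome against input it was -0.75 (SE 0.213, adjusted p 0.00198). Enpp2 has the longest coding sequence of the 10, 2742 bases against 441 to 1167 bases for the others (GENCODE M21), and codes for a secreted protein, as do Ttr, the Wnt genes and the R-spondin genes.

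Wnt8b was the most polysome-shifted of the hem genes. In polysomes it had 13.4, 8.19 and 0.869 CPM in LoF cHet, 23.7, 8.56 and 12.3 CPM in LoF control, 38.8, 16.9 and 1.4 CPM in T532M cHet and 4.66, 2.21 and 0.544 CPM in T532M control. Monosome levels in the same order were 2.6, 1.51 and 0.0413 CPM, 4.67, 1.45 and 3.52 CPM, 7.71, 2.77 and 0.513 CPM, and 1.35, 0.998 and 0.114 CPM. Each pool's polysome level was above its monosome level, and in the 10 pools with at least 10 read pairs in both libraries the log2 ratio was 2.08 ± 0.50 (SD). The fitted log2 fold change was 2.17 (SE 0.550, adjusted p 0.000525) against monosome and 1.77 (SE 0.540, adjusted p 0.00323) against input.

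Rspo2 and Rspo3, which encode related secreted proteins, went opposite ways. For Rspo2 the log2 ratio of polysome over monosome was 1.81 ± 0.49 (SD, n = 9 pools, above 0 in 9 of 9), with a fitted fold of 1.82 (SE 0.544, adjusted p 0.00253). For Rspo3 it was -0.998 ± 0.223 (SD, n = 12 pools, below 0 in 12 of 12), with a fitted fold of -0.99 (SE 0.142, adjusted p 1.33e-07). Rspo3 was higher in monosome than in input in 12 of 12 pools, by 1.20 on the log2 scale (SE 0.142, adjusted p 4.76e-09). Monosome levels of Rspo3 ran from 24.3 to 46.2 CPM and polysome levels from 12 to 19.3 CPM, with no overlap. With library totals as the scale Rspo3 was called lower in polysomes than in input (-0.68, adjusted p 6.08e-05), against 0.21 (adjusted p 0.174) on the TMM scale. The coding sequences of the pair are of similar length, 729 bases for Rspo2 and 831 bases for Rspo3. The difference between the 2 genes was not tested.

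**Figure D4:**
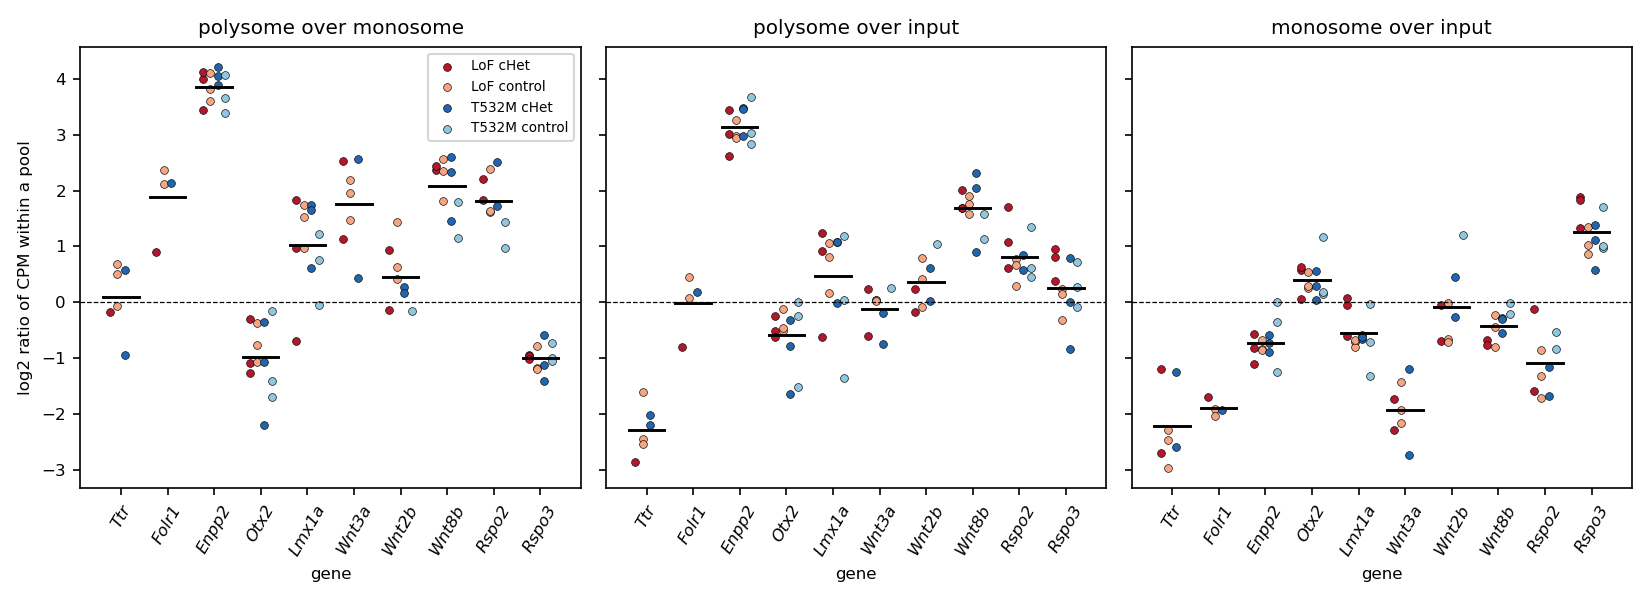
log2 ratio of CPM between 2 fractions of 1 pool (y axis) for each gene (x axis), 1 point a pool coloured by group, where both libraries had at least 10 read pairs; bars are means over pools and the dashed line is 0. Enpp2 points lie between 3.38 and 4.21 for polysome over monosome, and Rspo3 and Otx2 points all lie below 0.

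Wnt3a and Lmx1a were also higher in polysomes than in monosomes, by 2.01 (SE 0.798, adjusted p 0.0197) and 1.30 (SE 0.379, adjusted p 0.00206) on the log2 scale. Within pools the ratio was above 0 in 7 of 7 for Wnt3a and 10 of 12 for Lmx1a. Wnt3a was lower in monosome than in input (-2.10, SE 0.769, adjusted p 0.0143), below 0 in 7 of 7 pools. Without T532M control pool 1 both Wnt3a calls ended, with adjusted p of 1 for polysome against monosome and 0.413 for monosome against input, and without T532M cHet pool 1 the first of them ended too (adjusted p 0.0658). On library totals alone the polysome against monosome calls of Wnt3a, Lmx1a and Rspo2 ended too, at 1.12, 0.39 and 0.92.

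Wnt2b passed no fraction test, and its difference from the other Wnt genes was not tested. Its monosome levels were 2.39, 0.813 and 0.103 CPM in LoF cHet, 1.44, 1.94 and 1.06 CPM in LoF control, 3.98, 1.98 and 0.0615 CPM in T532M cHet and 0.899, 0.0805 and 0.0191 CPM in T532M control. Its polysome levels in the same order were 2.17, 1.56 and 0.109 CPM, 3.91, 2.6 and 1.63 CPM, 4.81, 2.24 and 0.0624 CPM, and 0.806, 0.136 and 0 CPM. Polysome over monosome was above 0 in 6 of the 8 pools with at least 10 read pairs in both libraries. The fitted fold was 0.36 (SE 0.607, adjusted p 0.571), and on library totals it turned to -0.54.

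Otx2 tended to the monosome: polysome over monosome was below 0 in 12 of 12 pools (-0.98 ± 0.62, SD) and monosome over input above 0 in 12 of 12 (0.40 ± 0.32, SD). The fitted polysome against monosome fold was -0.82 (SE 0.403, adjusted p 0.0553), which passed with the lysate as a block (-0.89, adjusted p 2.2e-06). Ttr was lower in both ribosomal fractions than in input wherever it could be measured, with log2 ratios of -2.28 ± 0.44 (SD, n = 6 pools, below 0 in 6 of 6) for polysome and -2.21 ± 0.70 (SD, n = 7, below 0 in 7 of 7) for monosome. The fitted Ttr folds of -2.32 (adjusted p 0.373) and -2.14 (adjusted p 0.375) passed with the lysate as a block (adjusted p 6.88e-07 and 1.22e-06). Folr1 was lower in monosome than in input (-1.83, SE 0.693, adjusted p 0.0174), below 0 in 4 of 4 pools, a call that ended without T532M control pool 1 (adjusted p 0.162). Because counts cover introns, unspliced RNA adds to a gene's level wherever it is present.

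With the lysate as a block, 8 of the 10 genes were called polysome against input and 9 of 10 monosome against input, in place of 2 and 4. In the same fits 89.4% and 81.5% of all genes were called, so these counts are close to the share over all genes. For polysome against input the added genes were Ttr, Folr1 (-0.94) and Otx2 (-0.48), lower, and Lmx1a (0.62), Rspo2 (0.82) and Rspo3 (0.25), higher. For monosome against input they were Ttr, Lmx1a (-0.58), Wnt8b (-0.42) and Rspo2 (-1.06), lower, and Otx2 (0.40), higher. All 11 had adjusted p between 1.4e-07 and 0.0178 in that fit.

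Whether the genotypes moved the spread over the gradient was tested as the genotype effect in polysomes minus that in input or in monosomes. By edgeR 0 of 10 genes were called in LoF over input (0.0108% of 18556 genes) or over monosome (0%), and 0 of 10 in T532M over input (0%) or over monosome (0.0603% of 18243 genes). The medians of the 10 were -0.11 and -0.26 in LoF and 0.10 and 0.48 in T532M. Rspo3 in LoF over input was the 1 value with an unadjusted p under 0.05 (6.87% of all genes): its polysome over input log2 ratio averaged 0.71 in LoF cHet and 0.03 in LoF control pools, with an adjusted p of 0.715.

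The other lists give the setting for these ratios, beside 39.2% of all 19121 genes called higher and 51.4% called lower for polysome against monosome. Polysome against monosome, 12 of 17 Wnt receptor and R-spondin pathway genes were higher and 3 lower (median 0.89), led by Fzd7 (2.80, SE 0.0805), Fzd2 (1.33, SE 0.0566) and Fzd8 (2.07, SE 0.0892). All 8 endothelial genes (median 3.03) and 11 of 13 tested genes of meninges and vascular fibroblasts (median 3.15) were higher, beside 3.93 for Enpp2. Of the other plexus markers 6 of 17 were higher and 4 lower (median -0.03), with Igfbp2 at 1.22 and Cab39l and Rdh5 at -2.78 and -3.43. Those named were present in every input, at 143 to 178, 31.7 to 45.8 and 0.542 to 1.46 CPM, also where Ttr was at 0. Whether their RNA came from the plexus was not tested. Of the other hem markers 5 of 15 were higher and 6 lower (median -0.01), with the BMP family gene Gdf10 at 3.52 and Bambi, a BMP pseudoreceptor, at -1.86. For the plexus and hem markers the counts called higher were close to the share over all genes.

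Other genes, those of the marker lists included, were ranked by likeness to the members over the 12 input libraries. Among 14559 genes with a mean of at least 0.5 CPM, the highest mean Spearman rho to the 4 plexus genes were those of Cav1, Rnase4, Id3, Il13ra1 and Npr3, from 0.847 to 0.855. The highest to the 6 hem genes were those of Cav1, Dkk3, Chst11, Prox1 and E330013P04Rik, from 0.85 to 0.858. Cav1, the caveolin of membrane pits, led both rankings, with 10.5 to 36.1 CPM in input. In the other fractions the mean rho to the plexus genes ran from 0.448 (Rnase4) to 0.76 (Id3) in monosome and from 0.552 (Il13ra1) to 0.778 (Npr3) in polysome libraries. To the hem genes it ran from 0.669 (Dkk3) to 0.811 (Prox1) in monosome and from 0.529 (E330013P04Rik) to 0.793 (Dkk3) in polysome libraries, and for Cav1 it was 0.716 and 0.622. Id3 is also on the hem marker list, Dkk3 among the Wnt targets and antagonists and Prox1 on the medial pallium list. These values describe 12 pools that differ together in several border genes, and the choice of the best of many genes raises them.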

How the data were processed

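Read pairs per gene were counted by the authors with featureCounts 2.0.3 over each gene from start to end, with introns and strand setting 2, on GENCODE M25 (GRCm38), per the file headers, and the raw counts are deposited. The submitters' processing notes also name STAR 2.7.11a. The authors' deposited tables give log2 fold changes with p-values, raw and adjusted. Counts were tested with edgeR 4.0.16 under R 4.3.3 (quasi-likelihood, TMM, filterByExpr, Benjamini-Hochberg, adjusted p under 0.05): 18 libraries a cross for genotype, all 36 for fractions and for the difference between crosses. DESeq2 1.42.0, other scalings, no filter, blocks and left-out pools were alternatives, and library totals alone were added after seeing the data. The fractions of a pool come from 1 lysate, per the labels' protocols, and deviated together (median r 0.193, 30 of 36 pairs over 0.1). The fits were tested on simulated data. Likeness is the mean Spearman rho to the genes of a class. The 10 genes and the marker lists were chosen with earlier results of these data known. The sources used here do not give which gradient fractions were joined.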

Additional observations from a re-analysis of the deposited data

How the results depend on the processing

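Of the 10 border genes, 0 were called by genotype in any fraction with RLE size factors in edgeR. The number moved with the low-count filter: without it, 6, 3 and 3 genes were called in LoF input, monosome and polysome (3.05%, 0.104% and 0.129% of all genes), 3, 1 and 5 in T532M (0.499%, 0.597% and 0.184%), and 9, 1 and 5 for the LoF effect minus the T532M effect (3.48%, 0.108% and 0.153%). DESeq2 called 1 gene in LoF input and 2 for the difference in input, and library totals alone called 1 for that difference (share of all genes not given here). Left-out pools gave 0 to 1 genes in LoF input (1 without LoF cHet pool 2) and in LoF monosome (1 without LoF cHet pool 1), and 0 to 5 for the difference in input (5 without T532M cHet pool 3, 1 without LoF control pool 2 or LoF cHet pool 2). In those fits 0 to 15 of all genes were called in LoF input, 1 to 180 in LoF monosome and 1 to 1697 for the difference in input. Over all genes, LoF input gave 0 calls by edgeR, 92 by DESeq2 and 967 without the filter, T532M monosome 188 by edgeR and 564 by DESeq2, and the difference in input 2 by edgeR and 681 by DESeq2. The cause was not tested.

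Same-numbered cHet and control pools showed little shared deviation (median r 0.00266, 4 of 18 pairs over 0.1), and the labels do not say what the number marks. With that number as a replicate block, 2, 4 and 2 genes were called in T532M input, monosome and polysome (0.115%, 1.91% and 0.0219% of all genes), and 1 for the difference in input (0.178%). With the lysate as a replicate block, 8 genes were called for polysome against input and 9 for monosome against input (89.4% and 81.5% of all genes).

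In the main fit 88.5% of all genes passed polysome against input, 79.4% monosome against input and 90.6% polysome against monosome. The counts of border genes below are to be read beside these shares, though other fits can call other shares of all genes. For polysome against input, 4 genes were called in the LoF cross alone, where 85.7% of all genes were. On library totals and without the filter 4 were called too, and 1 in controls only. Over left-out pools 2 to 4 were called, beside 16905 to 17027 of all genes. For monosome against input, 1 was called in the T532M cross alone and 2 in controls only. Over left-out pools 2 to 5 were called, beside 14957 to 15215 of all genes. For polysome against monosome, 3 were called in the T532M cross alone. Library totals turned the polysome against input folds of Lmx1a, Wnt2b, Rspo2 and Rspo3 to -0.18, -0.74, -0.10 and -0.68, and the polysome against monosome fold of Wnt2b to -0.54. Ttr turned to 0.0054 for polysome against monosome in the LoF cross alone, Wnt3a to 0.12 for polysome against input in controls only, and Rspo3 in T532M polysomes to 0.00012 with RLE size factors and 0.0013 by DESeq2.

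Over left-out pools some folds changed sign. In T532M input the range was -0.11 to 4.06 for Folr1, -0.26 to 0.60 for Enpp2, -0.30 to 1.73 for Otx2 and -0.17 to 0.74 for Rspo3. In T532M monosome it was -0.39 to 0.45 for Enpp2, -0.42 to 1.37 for Otx2 and -0.16 to 0.32 for Rspo3, and in polysome -0.13 to 0.93, -1.20 to 1.79 and -0.23 to 0.064 for the same genes. It was -1.66 to 0.12 for Wnt2b in LoF monosome, -0.81 to 0.021 for Enpp2 and -0.20 to 0.10 for Rspo3 in the difference between crosses (monosome and polysome), -0.35 to 0.31 for Wnt2b and -0.70 to 0.024 for Wnt3a for polysome against input, and -0.57 to 0.33 for Ttr for polysome against monosome. Input counts of Ttr and Wnt3a were at or under 3 read pairs in 4 of 12 pools and those of Folr1 in 3, and there depth limits what can be seen.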
